A study of Homo sapiens with 6 samples.

Results

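The 10 genes described are CRBN, DDB1, CUL4A, CUL4B, IKZF1, IKZF2, IKZF3, IKZF4, IKZF5 and ZFP91. They are the cereblon ubiquitin ligase and the Ikaros family zinc finger genes with ZFP91, taken by name from the 20033 protein-coding genes of GENCODE release 44. Chromatin accessibility was measured by Omni-ATAC, which inserts sequencing adapters into open chromatin with a transposase, in MM.1S, an established human multiple myeloma cell line. There were 3 libraries of cells incubated with 120 nM CB-6644, an inhibitor of the RUVBL1/2 ATPases, for 72 h, and 3 libraries of cells given DMSO. Live cells were isolated by flow sorting before library preparation, so that cells which did not survive the treatment were not measured. Both groups were this single cell line, and nothing in the labels says whether libraries of a group came from separate cultures, so that p-values measure the spread between these libraries, which may be technical. The question here was how accessible the promoters and surroundings of these genes were in each library and whether the groups differed.

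Cereblon, encoded by CRBN, is the substrate receptor of a cullin-RING ubiquitin ligase in which DDB1 joins the receptor to a CUL4A or CUL4B scaffold. Thalidomide analogs such as lenalidomide and pomalidomide bind cereblon and bring new proteins to it, above all Ikaros (IKZF1) and Aiolos (IKZF3), transcription factors on which myeloma cells depend. ZFP91, a zinc finger protein, is another such neosubstrate, while Helios (IKZF2), Eos (IKZF4) and Pegasus (IKZF5) complete the Ikaros family.

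The files held 1 list of called peaks per library, with 58563 to 79020 peaks each. Peaks of the 6 lists that overlapped by 1 bp or more were merged into 89196 regions. The strength of a peak was ranked inside its own list by the caller's −log10 p, so that the percentile 100 is the strongest peak of that library. The number of tags piled up at a summit was solved from each peak's fold enrichment and −log10 p, and was divided by a size factor per library to give a scaled pile-up. CB-6644 replicate 2 and DMSO replicate 1 stood apart from the others, with shortest peaks of 65 and 91 bp against 131 to 152 bp. They are called the short-fragment libraries, and the others the long-fragment libraries. These names rest on the shortest peak alone, used as a stand-in for the caller's fragment length. Fragment lengths themselves are not given. No read totals are known. The lowest local background of each list, solved together with the pile-up, served as a proxy of depth. It was 0.208 to 0.980 tags in the CB-6644 libraries and 0.583 to 1.23 tags in the DMSO libraries. Divided by the length of the shortest peak, the stand-in for fragment length, it was 3.20 to 7.05 tags per kb in the CB-6644 libraries. In the DMSO libraries it was 6.40 to 9.08 tags per kb. These ranges overlapped with lower values after CB-6644, and the part of depth in the results was not tested. A missing peak means that none was called at that library's depth, not that the chromatin was closed. All 8 plasma cell markers examined had a promoter peak in all 6 libraries. No promoter peak was called in any library for the mature B cell markers MS4A1 and CD22, for CD3E, CD3D and CD4 of the 4 T cell markers, or for LYZ and CSF1R of the 3 myeloid markers. PAX5, CD8A, CD14, HBB, COL1A1 and EPCAM had promoter peaks in all 6 libraries, and KRT18 in 1.

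The promoters of all 10 genes were open in both groups. A promoter peak, within 1000 bp of a protein-coding transcript start, was called in all 6 libraries at each of the 10 genes, where 64.6% of the 19689 protein-coding genes with such a start had one. The levels were lower after CB-6644 on average at 5 genes and higher at 5, and the median of the 10 differences was -0.0027 percentile points. Over the 12715 genes with a promoter peak in all 6 libraries the median difference was -1.03 points, with quartiles of -3.62 and 0.198. The CB-6644 libraries lay entirely below the DMSO libraries at 1 of the 10 promoters, IKZF4, against 16.9% of those genes, and entirely above at 1, ZFP91, against 1.67%. At the other 8 promoters the groups overlapped.

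**Figure D1:**
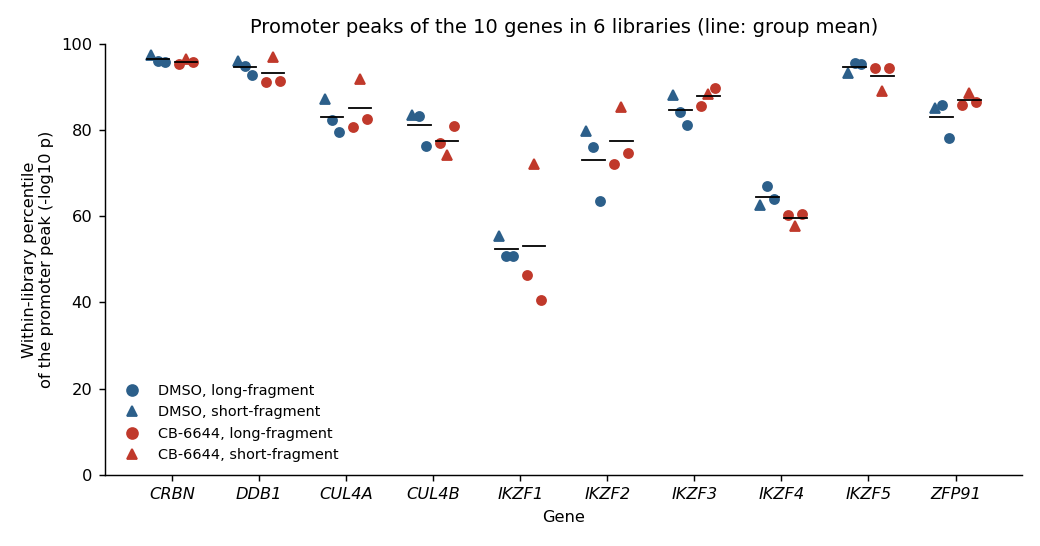
Within-library percentile of −log10 p of the strongest promoter peak of each gene (vertical axis, 0 to 100), with 1 point per library (blue DMSO, red CB-6644, triangles the short-fragment libraries) and a black line at each group mean. CRBN, DDB1 and IKZF5 sit highest in both groups, IKZF1 lowest with the widest spread, and only IKZF4 and ZFP91 have groups that do not overlap.

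CRBN had the highest mean promoter percentile of the 10. Its percentiles were 95.2, 96.4 and 95.8 in CB-6644 replicates 1 to 3 and 97.5, 96.1 and 95.9 in DMSO replicates 1 to 3. The 6 values spanned 95.2 to 97.5 and the groups overlapped, with a difference of -0.657 points (exact two-sided permutation test, p = 0.4, where 0.1 is the smallest p that 3 against 3 libraries allow). Scaled pile-up at the CRBN promoter was 247 ± 23.6 tags (SD, n = 3) after CB-6644 and 237 ± 23.2 tags in DMSO. The peak lay at chr3:3179445-3180118 (hg38), spanning the canonical start, and its summit stood at -60 to -54 bp from that start in all 6 libraries.

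The adaptor gene DDB1 came next. Its promoter percentiles were 91.3, 97.0 and 91.4 after CB-6644 and 96.0, 94.9 and 92.9 in DMSO, with the short-fragment library the highest of each group. The difference was -1.36 points (exact permutation p = 0.6). The peak, at chr11:61332761-61333498, also covers the start of TKFC, a metabolic kinase gene transcribed the other way from 117 bp away, and the signal cannot be divided between both genes.

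The scaffold genes were weaker than their receptor and adaptor. CUL4A had promoter percentiles of 80.8, 91.9 and 82.6 after CB-6644 and 87.3, 82.4 and 79.5 in DMSO, a difference of 2.07 points (exact permutation p = 0.6). Without CB-6644 replicate 2 the difference was -1.35. Its start is 898 bp from that of PCID2. The CUL4A promoter peaks fell in 2 regions called in all 6 libraries, chr13:113208148-113209641 and chr13:113209893-113210312, and the stronger was the second in CB-6644 replicate 2 and DMSO replicates 2 and 3.

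CUL4B, the X-linked scaffold, had promoter percentiles of 77.0, 74.3 and 80.9 after CB-6644 and 83.5, 83.4 and 76.4 in DMSO, a difference of -3.69 points (exact permutation p = 0.3). A further CUL4B start shares a region with MCTS1, a translation factor gene, at chrX:120603751-120604390. There the percentiles were 63.7, 70.3 and 69.2 after CB-6644 and 77.4, 79.2 and 74.5 in DMSO. At this distal start every CB-6644 library was below every DMSO library, and at the main CUL4B promoter the groups overlapped.

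IKZF1, the gene of Ikaros, had the lowest mean promoter percentile of the 10. By scaled pile-up IKZF4 was lower than IKZF1. The IKZF1 percentiles were 46.3, 72.0 and 40.6 after CB-6644 and 55.5, 50.8 and 50.7 in DMSO. The 3 DMSO values lay close together, whereas CB-6644 replicate 2 lay above all others and CB-6644 replicates 1 and 3 below. The mean difference of 0.652 points (exact permutation p = 1) hid opposite values in the fragment sets. The long-fragment libraries alone differed by -7.30 points and the short-fragment pair by 16.5. A neighbouring IKZF1 promoter region at chr7:50308742-50309142 was weaker, with percentiles from 9.92 to 43.2 over the 6 libraries.

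IKZF2, encoding Helios, had promoter percentiles of 72.2, 85.4 and 74.6 after CB-6644 and 79.7, 76.2 and 63.7 in DMSO, a difference of 4.22 points (exact permutation p = 0.6). Without DMSO replicate 3, the lowest library, the difference was -0.544.

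IKZF3, encoding Aiolos, had a strong promoter peak at chr17:39864054-39864408, spanning its start. The percentiles were 85.7, 88.3 and 89.8 after CB-6644 and 88.3, 84.3 and 81.2 in DMSO. The difference was 3.32 points (exact permutation p = 0.2), or 20.5 points on percentiles of fold enrichment (exact permutation p = 0.2), and scaled pile-up was 172 ± 15.9 tags after CB-6644 and 153 ± 7.64 tags in DMSO (SD, n = 3 each). The groups overlapped in percentile of −log10 p and in pile-up. The limma log2 difference in fold enrichment was 0.54 (SE 0.18, adjusted p = 0.215), and its adjusted p was 0.0359 with the fragment set as a covariate and 0.561 on pile-up. The limma differences at the other 9 promoters had adjusted p-values of 0.456 or more.

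IKZF4, the gene of Eos, had its promoter peak at an upstream start, chr12:56007082-56008029, and no library had a peak called within 1000 bp of the canonical start. The summits stood at -13650, -13651 and -13635 bp from the canonical start in the CB-6644 libraries and at -13319, -13345 and -13345 bp in the DMSO libraries, so that the groups differed in which summit of the region was the strongest. The percentiles were 60.3, 57.9 and 60.6 after CB-6644 and 62.6, 66.9 and 64.0 in DMSO. Every CB-6644 library was below every DMSO library, with a difference of -4.94 points between the means (exact permutation p = 0.1, the smallest possible). Adjusted over the 10 promoters by the Benjamini-Hochberg method, this permutation p was 0.5. Scaled pile-up at these different summits overlapped between the groups, at 55.8 ± 4.49 tags after CB-6644 and 56.7 ± 7.54 in DMSO (SD, n = 3 each).

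IKZF5, encoding Pegasus, ranked with DDB1. Its promoter percentiles were 94.4, 89.2 and 94.3 after CB-6644 and 93.3, 95.6 and 95.3 in DMSO, a difference of -2.07 points (exact permutation p = 0.4), and the short-fragment library was the lowest of each group. Its start is 184 bp from that of ACADSB, an acyl-CoA dehydrogenase gene read the other way, and both share the peak.

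ZFP91 was the only promoter with higher percentiles in every CB-6644 library. They were 85.9, 88.7 and 86.5 after CB-6644 and 85.1, 85.8 and 78.2 in DMSO. The groups nearly touched, and the difference was 3.99 points (exact permutation p = 0.1, and 0.5 adjusted over the 10 promoters). Without DMSO replicate 3, the lowest library, the difference was 1.55. Scaled pile-up was 233 ± 12.5 tags after CB-6644 and 197 ± 16.7 in DMSO (SD, n = 3 each), again without overlap. Fold enrichment did overlap, with 10.4 in CB-6644 replicate 1 below 12.5 in DMSO replicate 1, and within-library percentiles of fold differed with an exact permutation p of 0.6. The merged region of 2291 bp also covers the start of LPXN, 843 bp away. Its strongest summit stood 689 bp downstream of the ZFP91 start in CB-6644 replicate 2, the library with the highest percentile. In the other libraries it stood at -65 to -42 bp, so that the values were not all read at the same summit.

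The sequences of the IKZF4 and ZFP91 promoters are shown because these were the 2 promoters whose groups did not overlap. Each line gives the 150 bases before an annotated RefSeq start (GRCh38.p14), 5′ to 3′ on the strand of the gene. The windows are chr12:56007354-56007503 and chr11:58578913-58579062, each inside a merged region called in all 6 libraries. Whether each library's own peak covers these bases was not tested. Capitals mark CCGGAAG, a core letter string of ETS family factors searched on both strands, which 6.85% of all 35116 such RefSeq promoter windows hold. It occurs in the IKZF4 window and not in that of ZFP91.
IKZF4: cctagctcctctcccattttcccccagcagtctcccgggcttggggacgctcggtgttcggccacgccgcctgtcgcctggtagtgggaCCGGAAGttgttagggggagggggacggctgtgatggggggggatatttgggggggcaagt
ZFP91: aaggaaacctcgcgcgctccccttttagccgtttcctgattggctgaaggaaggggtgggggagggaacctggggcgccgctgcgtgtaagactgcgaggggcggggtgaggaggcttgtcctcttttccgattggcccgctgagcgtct

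By mean percentile over the 6 libraries the order was CRBN, DDB1, IKZF5, IKZF3, ZFP91, CUL4A, CUL4B, IKZF2, IKZF4 and IKZF1, from 96.2 to 52.7. All 9 neighbouring pairs in this order had overlapping ranges. IKZF5 exceeded IKZF3 in 6 of 6 libraries, by 7.42 ± 4.85 points (SD, n = 6). IKZF2 exceeded IKZF4 in 5 of 6, by 13.2 ± 9.18, and IKZF4 exceeded IKZF1 in 5 of 6, by 9.37 ± 12.3, CB-6644 replicate 2 being high at IKZF1. DDB1 was above IKZF5 in only 2 of 6.

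Around the genes, as over all merged regions, more regions were called only in DMSO than only after CB-6644. The gene bodies with 50 kb on each side covered 1687 kb and held 112 merged regions. Of these, 56 were called in all 6 libraries, which is 50% against 47.2% of all regions. A further 7 were DMSO-only, called in all 3 DMSO libraries and no CB-6644 library, which is 6.25% against 4.5%. There were 0 CB-6644-only regions, against 0.586%. The number of peaks in the windows was 76, 101 and 79 after CB-6644 and 104, 91 and 86 in DMSO. The groups overlapped, with means of 85.3 ± 13.7 and 93.7 ± 9.29 peaks (SD, n = 3 each, exact permutation p = 0.5). With all 6 lists limited to their 58563 strongest peaks the DMSO-only regions numbered 2 and the CB-6644-only regions 1. The shares of all regions with lists so limited are not given, so these counts cannot be set against the rest of the series.

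**Figure D2:**
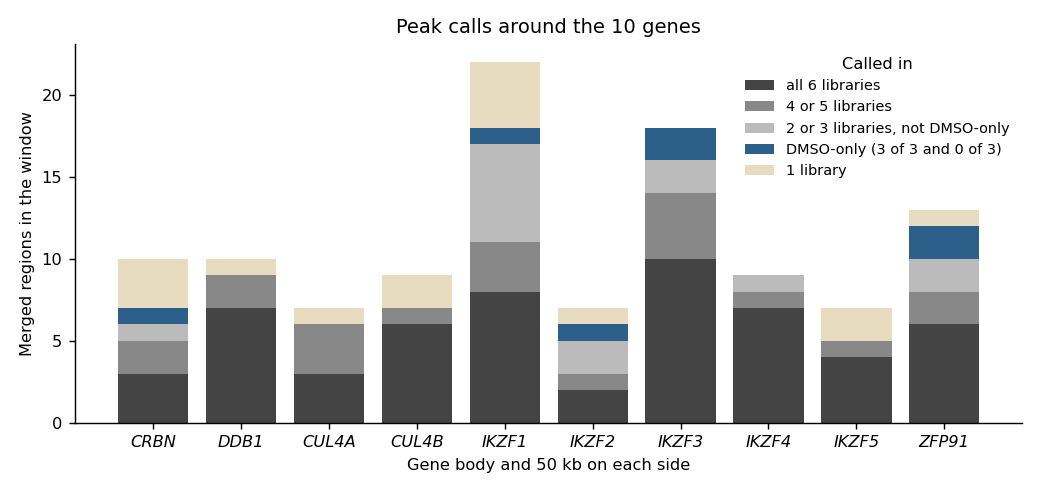
Number of merged regions (vertical axis) in the window of each gene, coloured by the number of libraries with a peak. IKZF1 has the most regions, 22, of which 8 were called in all 6 libraries, and the DMSO-only regions (blue) stand at CRBN, IKZF1, IKZF2, IKZF3 and ZFP91.

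The windows differed in density. IKZF1 held 22 regions and IKZF3 18, whereas IKZF2, with the longest window, held 7. The regions numbered 13 for ZFP91, 10 each for CRBN and DDB1, 9 each for CUL4B and IKZF4, and 7 each for CUL4A and IKZF5. By annotation 15 of the 112 were promoters of the 10 genes, 24 were promoters of other genes, 40 were intronic, 11 exonic and 22 intergenic.

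The 7 DMSO-only regions were mostly weak peaks, and 5 lay inside a gene of the set. The strongest of these was in an intron of IKZF1 at chr7:50331709-50332121, with percentiles of 56.0, 56.0 and 41.7 in the DMSO libraries. A region in an intron of GLYAT, a glycine acyltransferase gene downstream of ZFP91, at chr11:58654981-58655228, reached 46.2, 58.1 and 60.1. The other 5 had percentiles of 30.4 or less in every DMSO library.

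IKZF3 had 2 DMSO-only regions. The first, over a UTR exon at chr17:39758043-39758374, had percentiles of 7.86, 23.6 and 25.3. The second, 755 bp upstream of the start at chr17:39865067-39865244, had 17.2, 8.72 and 9.66. The remaining 3 were an exon of CRBN at chr3:3172726-3172920 with 22.1, 13.5 and 14.0, an intron of IKZF2 at chr2:213015845-213016063 with 30.4, 9.53 and 9.09, and an intron of ZFP91 at chr11:58592848-58593100 with 19.0, 26.5 and 16.6.

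Among the 56 regions called in all 6 libraries, every CB-6644 percentile was below every DMSO percentile at 17, which is 30.4% against 24.6% of all such regions. Every CB-6644 percentile was above at 5, which is 8.93% against 5.61%, and 34 overlapped. The median difference was -1.98 points in the windows and -2.64 over all 42089 shared regions. Of the 17 lower regions 10 were promoters of any gene, of 32 promoters, and 7 lay elsewhere, of 24. By gene window the lower regions numbered 4 of 10 at IKZF3, 4 of 6 at CUL4B, 3 of 7 at IKZF4 and 1 of 8 at IKZF1.

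The peaks were then compared by limma on log2 fold enrichment, quantile normalised between libraries and fitted over all 42089 shared regions with Benjamini-Hochberg adjustment. Lower values passed an adjusted p of 0.05 at 0 of the 56 regions, against 0.461% of all regions, and higher values at 0, against 0.513%. At an unadjusted p under 0.05 there were 4 lower and 6 higher regions of the 56, and 3277 lower and 2919 higher of all. With scaled pile-up in place of fold the limma calls were 3 lower, against 5.28%, and 2 higher, against 4.36%. With the fragment set as a covariate they were 1 lower, against 4.01%, and 2 higher, against 3.4%. With normal scores of −log10 p they were 2 lower, against 3.27%, and 2 higher, against 3.4%. In the 4 long-fragment libraries alone they were 3 lower, against 2.73% of 47878 regions, and 0 higher, against 2.06%. At an unadjusted p under 0.05 that fit had 8 lower and 8 higher of 60 window regions, and 5763 lower and 5402 higher of all 47878.

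**Figure D3:**
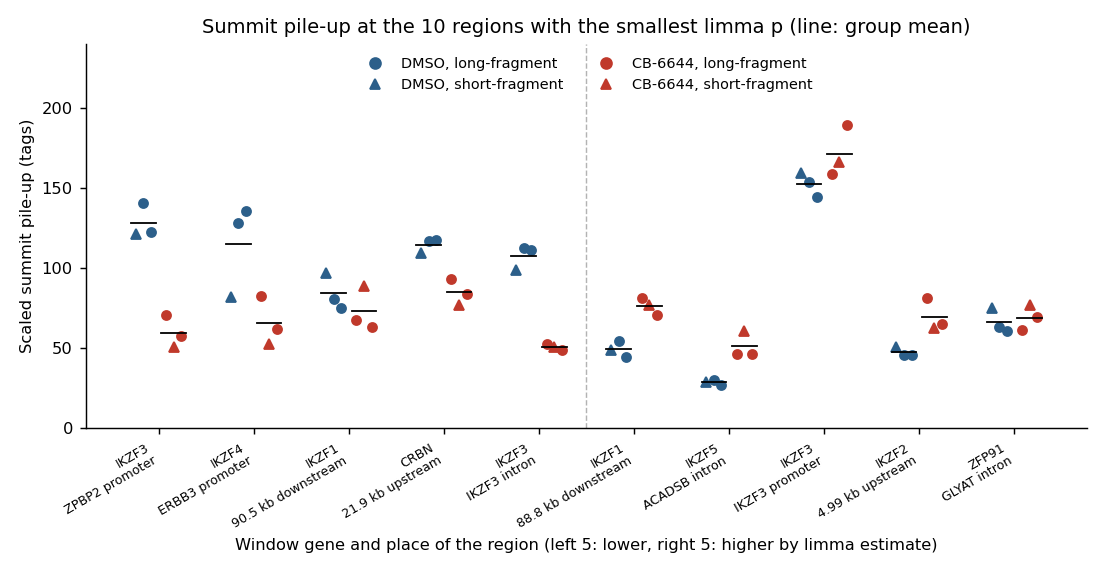
Scaled summit pile-up in tags (vertical axis, from 0) at the 5 regions with the smallest limma p in each direction, 1 point per library (blue DMSO, red CB-6644, triangles the short-fragment libraries) and a black line at each group mean. The ZPBP2 promoter and the IKZF3 intron in the IKZF3 window stand at 0.466 and 0.471 of the DMSO mean after CB-6644, and the region 88.8 kb downstream of an IKZF1 start at 1.55.

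Of the lower window regions called in all 6 libraries, IKZF3 had the 2 with the widest gaps, away from its own promoter. An intronic region at chr17:39769921-39770615, 7.61 kb from the nearest IKZF3 start, had percentiles of 46.0, 56.8 and 48.9 after CB-6644 and 80.0, 80.0 and 77.4 in DMSO. Its scaled pile-up was 50.8 ± 1.77 tags after CB-6644 and 108 ± 7.66 tags in DMSO (SD, n = 3 each), a ratio of 0.471. The ratio was 0.454 in the long-fragment libraries and 0.512 in the short-fragment pair. The adjusted p of limma was 0.345 on fold enrichment (log2 difference -0.38, SE 0.16), 0.00494 on pile-up and 0.0147 on normal scores.

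The other lay 2.76 kb upstream of the IKZF3 start at chr17:39867072-39867714, within 1000 bp of the start of ZPBP2, a zona pellucida binding protein gene. Its percentiles were 48.6, 42.0 and 37.8 after CB-6644 and 81.5, 81.8 and 75.6 in DMSO. The highest treated library was thus far below the lowest control. Scaled pile-up was 59.8 ± 10.3 tags after CB-6644 and 128 ± 10.8 in DMSO (SD, n = 3 each), a ratio of 0.466. The log2 difference in fold enrichment was -0.64 (SE 0.18, limma adjusted p = 0.158). Ranked from the lowest, it stood at 3.26% of all shared regions. The limma adjusted p was 0.00851 on pile-up and 0.00907 on normal scores. With the fragment set as a covariate it was 0.0227, and in the long-fragment libraries 0.0485.

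The sequences of both are given because, of the 56 regions called in all 6 libraries, they had the largest differences in mean percentile, -36.9 and -28.6 points. They are 101 bases around the summit of the strongest library, on the plus strand of hg38, at chr17:39770058-39770158 for the intron and chr17:39867260-39867360 for the upstream region. Capitals mark CAGGTG, the E-box string, read here on the minus strand as CACCTG.
IKZF3 intron: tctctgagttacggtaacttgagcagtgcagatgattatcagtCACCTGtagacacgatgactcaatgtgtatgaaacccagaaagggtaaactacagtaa
IKZF3 upstream: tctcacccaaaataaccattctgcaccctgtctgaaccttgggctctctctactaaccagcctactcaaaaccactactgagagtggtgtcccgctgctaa

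The other IKZF3 regions called in all 6 libraries had ratios on both sides of 1, and 4 of them are given, singled out after their values were seen. Intronic regions at chr17:39794202-39794688 and chr17:39800590-39800883 had ratios of scaled pile-up of 0.649 and 0.643, another intronic region, chr17:39819334-39819742, had 1.07, and the promoter had 1.12. A region 21.8 kb downstream of the nearest start, chr17:39755901-39756450, had 1.31, with percentiles of 79.3, 81.7 and 78.3 after CB-6644 and 75.2, 73.4 and 71.8 in DMSO. The first of the intronic regions passed limma on pile-up as a lower region (adjusted p = 0.0471). The strongest region away from promoters, chr17:39753870-39754865, had percentiles of 95.0, 88.2 and 95.3 after CB-6644 and 92.8, 96.5 and 95.8 in DMSO.

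Partly called regions of IKZF3 went both ways. The intronic regions below were chosen after their values were seen. The rule took regions with peaks in all 3 libraries of 1 group and in 1 or 2 of the other. Their mean percentiles differed by over 25 points. An intronic region at chr17:39834052-39834325 had a peak in 1 CB-6644 library, at percentile 3.93, and in all 3 DMSO libraries at 32.9, 46.0 and 52.6. Another at chr17:39848600-39848838 had peaks in all 3 CB-6644 libraries at 58.7, 76.9 and 59.2, and in 2 DMSO libraries at 45.1 and 29.2. A region over an internal IKZF3 start, chr17:39777730-39778398, was named as a promoter region and not by this rule. It was called in 5 libraries, at 5.11 and 5.21 in CB-6644 replicates 1 and 3 and at 0.828, 47.6 and 33.5 in DMSO. It was 1 of the 3 lower calls in the long-fragment libraries (limma adjusted p = 0.0465).

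**Figure D4:**
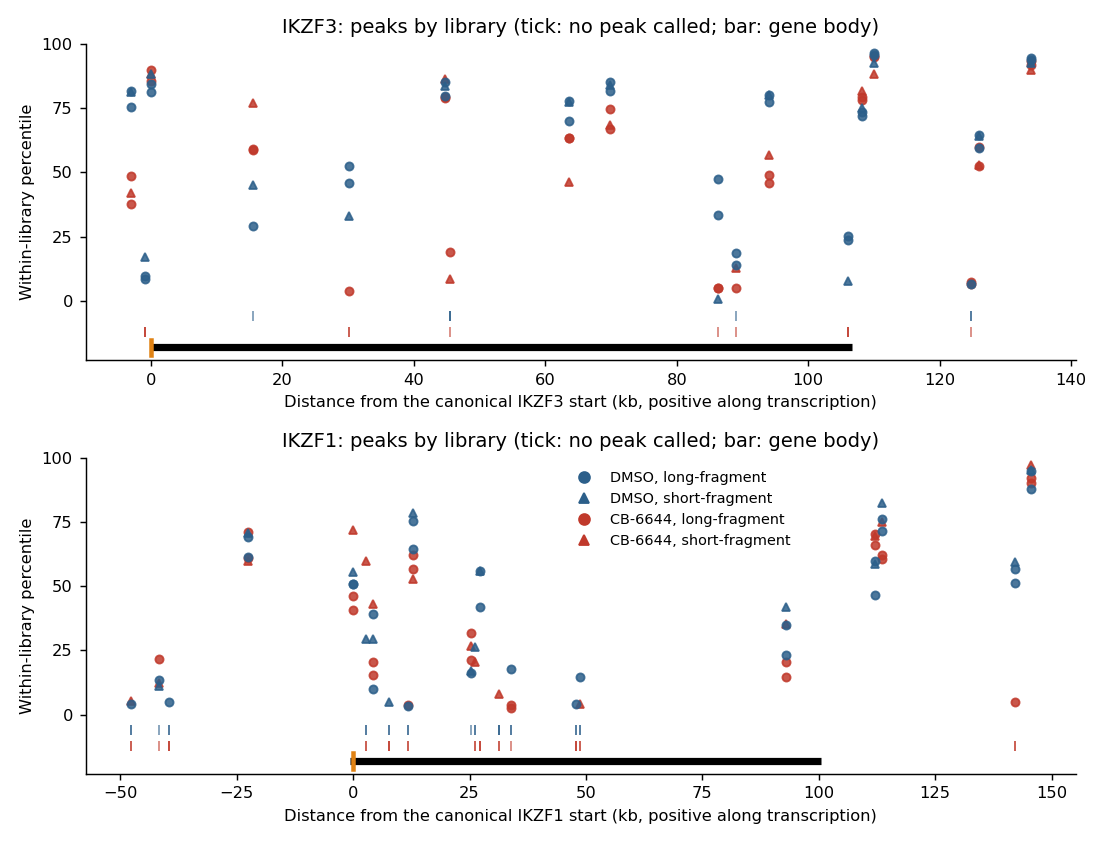
Percentile of each peak (vertical axis) against its distance in kb from the canonical start (horizontal axis, positive along transcription) for IKZF3 above and IKZF1 below, with ticks where a library had no peak (blue DMSO, red CB-6644), a black bar for the gene body and an orange mark at the start. In IKZF3 the region 2.76 kb upstream of the start and an intronic region late in the gene body show blue and red points far apart, while at the start they mix.

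At IKZF1 the surroundings also differed in both directions. An intergenic region downstream of the gene, chr7:50416457-50416930, had percentiles of 70.4, 69.5 and 66.1 after CB-6644 and 58.7, 59.8 and 46.7 in DMSO. Scaled pile-up was 76.6 ± 5.32 tags after CB-6644 and 49.3 ± 4.96 in DMSO (SD, n = 3 each), a ratio of 1.55 that was 1.55 in the long-fragment and 1.57 in the short-fragment libraries. It had the smallest limma p of the 56 regions (log2 difference 0.54, SE 0.12, adjusted p = 0.0858), and an adjusted p of 0.035 on pile-up, 0.0372 on normal scores and 0.0298 with the fragment set as a covariate. The nearest gene start is that of FIGNL1, 32765 bp away.

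Its neighbour chr7:50418149-50418435, the strongest IKZF1 region away from promoters, had the opposite sign. The percentiles there were 62.0, 74.9 and 60.6 after CB-6644 and 82.4, 76.0 and 71.4 in DMSO, which overlapped, and the limma log2 difference was -0.37 (SE 0.14, adjusted p = 0.293). An intronic region at chr7:50317289-50317693, singled out after its values were seen, had values of 62.0, 52.9 and 56.7 after CB-6644 and 78.5, 75.2 and 64.6 in DMSO. A region over a UTR exon of FIGNL1 at the far end of the window, chr7:50446663-50446947, chosen by the same rule, was called in 1 CB-6644 library at percentile 4.94 and in the DMSO libraries at 59.4, 56.8 and 51.4.

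The IKZF1 sequences show a region with higher values after CB-6644 and the DMSO-only intron, again 101 bases of the plus strand of hg38, at chr7:50416625-50416725 and chr7:50332011-50332111. Capitals mark GAAANNGAA, a string of interferon regulatory factors such as IRF4, read here on the minus strand. The DMSO-only window held none of the 7 strings searched.
IKZF1 downstream: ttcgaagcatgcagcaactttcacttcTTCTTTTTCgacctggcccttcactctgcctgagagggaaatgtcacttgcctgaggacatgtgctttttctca
IKZF1 DMSO-only: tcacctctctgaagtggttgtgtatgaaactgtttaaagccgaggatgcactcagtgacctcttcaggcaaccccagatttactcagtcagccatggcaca

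IKZF2 had few regions, and 2 of them upstream of its start differed in sign. One at chr2:213157416-213157624, 4.99 kb upstream, had percentiles of 73.7, 67.6 and 66.4 after CB-6644 and 65.2, 58.5 and 54.1 in DMSO. Its scaled pile-up ratio was 1.47 (limma log2 difference in fold 0.36, SE 0.12, adjusted p = 0.235, and 0.0732 on pile-up). The other, 13.6 kb upstream at chr2:213166062-213166427 and chosen by the same rule, was called in 2 CB-6644 libraries at 33.5 and 24.3 and in the DMSO libraries at 46.7, 64.1 and 76.2. Scaled pile-up there overlapped, with 25.8 tags in CB-6644 replicate 1 and 24.5 in DMSO replicate 1. The region was a lower call in the long-fragment libraries, which leave out DMSO replicate 1 (limma adjusted p = 0.0308).

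The IKZF2 sequences were picked because they hold TGGGAA, a core string bound by Ikaros, in capitals. The string is not particular to IKZF2, and 8.93% of the 112 regions hold it near their summit, against 12.9% of all 89196. The sequences lie at chr2:213157481-213157581 and, for the DMSO-only intron, chr2:213015929-213016029. In the first the capitals run over CACCTG and TGGGAA, which overlap by 2 letters.
IKZF2 upstream: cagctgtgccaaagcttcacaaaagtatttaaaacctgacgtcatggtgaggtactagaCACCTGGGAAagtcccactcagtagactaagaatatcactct
IKZF2 DMSO-only: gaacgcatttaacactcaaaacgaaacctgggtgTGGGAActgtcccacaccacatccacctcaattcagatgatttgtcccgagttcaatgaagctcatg

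The IKZF5 window held a region with higher values inside an intron of ACADSB, chr10:123043456-123043695. The percentiles were 58.8, 70.4 and 60.7 after CB-6644 and 54.0, 49.7 and 41.3 in DMSO. Scaled pile-up was 51.2 ± 8.33 tags after CB-6644 and 28.8 ± 1.38 in DMSO (SD, n = 3 each), a ratio of 1.77, the highest of the regions named for their limma p. The limma adjusted p was 0.174 on fold (log2 difference 0.41, SE 0.12), 0.0203 on pile-up and 0.0266 on normal scores.

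In the IKZF4 window the lowest limma p fell at the promoter of ERBB3, a receptor tyrosine kinase gene, chr12:56079046-56079691. The percentiles were 68.5, 55.6 and 58.5 after CB-6644 and 75.3, 85.4 and 86.0 in DMSO. The ratio of scaled pile-up was 0.572 and the limma log2 difference was -0.43 (SE 0.16, adjusted p = 0.257). The strongest region away from promoters, chr12:56047007-56047386, was called in 5 libraries at percentiles from 38.8 to 59.6.

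In the windows of the ligase genes, differences of either sign were also seen. At CRBN an intergenic region 21.9 kb upstream, chr3:3201583-3202119, had percentiles of 76.3, 73.5 and 72.2 after CB-6644 and 84.6, 84.9 and 84.8 in DMSO. The DMSO libraries lay close together, and all were above the treated ones. Scaled pile-up was 84.9 ± 8.28 tags after CB-6644 and 115 ± 4.66 in DMSO (SD, n = 3 each), a ratio of 0.740 (limma log2 difference in fold -0.29, SE 0.12, adjusted p = 0.319, and 0.105 on pile-up).

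At DDB1 the strongest region away from promoters, an exonic one at chr11:61336213-61336464, had percentiles from 58.6 to 77.3 with the groups overlapping. At CUL4B the corresponding region, chrX:120497984-120498308, had 74.3, 65.2 and 75.8 after CB-6644 and 82.5, 77.7 and 76.0 in DMSO, with a pile-up ratio of 1.02 in the long-fragment libraries and 0.593 in the short-fragment pair. At CUL4A an intergenic region downstream, chr13:113288907-113289302, was called in all CB-6644 libraries at 64.9, 67.9 and 55.0 and in 2 DMSO libraries at 22.1 and 25.8, with no overlap among the libraries that had a peak. The window of CUL4B held the reverse in an intron of LAMP2, a lysosomal membrane protein gene, at chrX:120457040-120457274, chosen by the same rule, with 1 peak after CB-6644 at percentile 8.16 and peaks at 39.5, 42.4 and 43.6 in DMSO.

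In the ZFP91 window 2 intronic regions of neighbours were named. The region in LPXN, chr11:58562344-58562823, had percentiles of 82.7, 65.0 and 71.6 after CB-6644 and 87.6, 89.2 and 90.1 in DMSO, with a pile-up ratio of 0.591 (limma adjusted p on fold = 0.432, and 0.0827 on pile-up). The region in GLYAT, chr11:58654135-58654398, had a limma log2 difference of 0.37 (SE 0.15, adjusted p = 0.307), but percentiles that overlapped, with 63.9, 75.3 and 69.7 after CB-6644 and 76.0, 66.7 and 60.6 in DMSO.

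The 7 strings were counted within 100 bp of the strongest summit of each region, on both strands. The Ikaros core TGGGAA occurred in 8.93% of the 112 regions against 12.9% of all 89196, and CAGGTG in 29.5% against 27.6%. CCGGAAG occurred in 5.36% against 3.64%, GAAANNGAA in 11.6% against 13.8%, TGCTGAC of MAF factors in 4.46% against 5.30%, TGATGNAA of ATF4 with CEBP partners in 1.79% against 3.98%, and GCGCATGC of NRF1 in 0.893% against 0.894%. A match is a string of letters, and binding was not measured.

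Other genes of the pathway gave a background for the promoters. All 22 partners of the CRL4 ligase, among them the NEDD8 conjugation and COP9 signalosome genes, had a promoter peak in all 6 libraries, against 64.6% of all genes. The CB-6644 libraries were entirely below the DMSO libraries at 1 of them, COPS7A, against 16.9%, and entirely above at 0, against 1.67%, and the median difference was -0.425 points. The values furthest from 0 were -8.34 at NEDD8, the ubiquitin-like modifier of cullins, and -4.31 at GPS1, COPS6 following with -2.34 and COPS8 with -2.19.

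Of 14 other cereblon neosubstrates 13 had a promoter peak in all 6 libraries, and SALL4, a developmental zinc finger gene, had none. ZBTB16, which encodes PLZF, stood apart with percentiles of 23.9, 2.81 and 29.1 after CB-6644 and 50.4, 52.6 and 42.2 in DMSO. ZBTB16 was the 1 gene of the 13 entirely lower, against 16.9% of all genes. ZNF653, higher by 2.48 points, was the 1 entirely higher, against 1.67%, and 11 overlapped. ZNF827 differed by 2.79 and WEE1, a cell cycle kinase gene, by -1.52, and the median was -0.369.

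Of 5 lymphoid genes downstream of Ikaros and Aiolos, 4 had a promoter peak in all 6 libraries and IL2 had none. The CB-6644 libraries were entirely below at 3 of the 4, where 16.9% of all genes with a promoter peak in all 6 libraries were. The list was chosen with earlier results of these data known, and the study showed regions of lower accessibility around IRF4. Among the 8 plasma cell markers, which include IRF4, PRDM1 and TNFRSF17, 3 were entirely lower. IRF4, a transcription factor essential to myeloma, had percentiles of 59.2, 55.1 and 73.5 after CB-6644 and 82.9, 81.2 and 86.2 in DMSO. MYC had 65.0, 63.1 and 63.0 after CB-6644 and 73.6, 83.3 and 82.1 in DMSO. PRDM1, which encodes Blimp-1, differed by -2.21 points, and TNFRSF17, which encodes BCMA, by -7.06 with overlap, for a median of -11.5 over the 4.

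**Figure D5:**
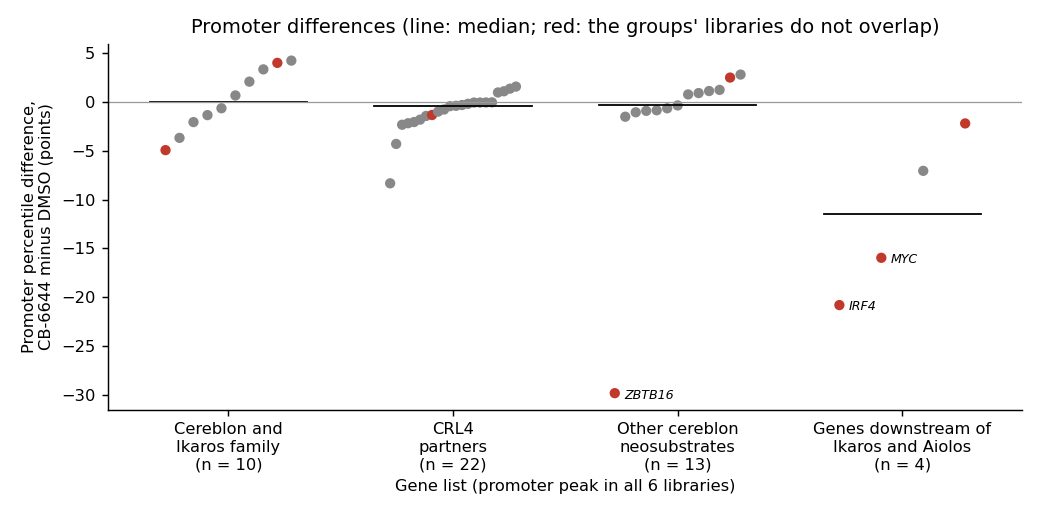
Difference in promoter percentile, CB-6644 minus DMSO in percentile points (vertical axis), with 1 point per gene that had a promoter peak in all 6 libraries, a black line at each list's median and red where the groups' libraries do not overlap. The 10 cereblon and Ikaros family genes lie between -4.94 and 4.22, while ZBTB16 at -29.8, IRF4 at -20.8 and MYC at -16.0 stand below the other genes of their lists.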

How the data were processed

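Omni-ATAC peak lists of 6 MM.1S libraries were analysed, 3 with CB-6644 (120 nM, 72 h) and 3 with DMSO, with groups and replicate numbers as labelled. For alignment to hg38 the authors used Bowtie2 (version 2.4.2), and for peak calling in each library MACS3 (version 3.0). Versions are from the submitters' processing notes, and the caller's settings are not given in the sources used here. The deposited lists give for each peak a display score, a fold enrichment, which is the ratio of pile-up to local background, and −log10 p and −log10 q of the summit, all as the authors' caller wrote them and not scaled between libraries. The display score was not used.

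Overlapping peaks (1 bp or more) of chromosomes 1 to 22, X and Y were merged. Promoters lay within 1000 bp of protein-coding transcript starts, and windows were gene bodies with 50 kb on each side (GENCODE release 44). A gene's promoter value was the strongest promoter peak of each library. Where a region held several peaks of a library, the strongest was used. Summit pile-up was solved from fold and −log10 p under a Poisson model, with 100% of peaks within 0.02 of the listed −log10 p, and divided by size factors of 0.493 to 1.43, the median ratios over shared regions. The lists hold no counts or read totals, so the edgeR test of read counts that the study used could not be applied. limma (version 3.58.1, R 4.3.3) was fitted to quantile-normalised log2 fold, and was tested on simulated data. An exact permutation test over the libraries (two-sided, smallest p 0.1) was used for single values. No interval or detection floor is given because depth is unknown. Scripts were written in Python 3.11.15 (pandas 2.3.3, scipy 1.17.1, numpy 2.4.6).

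The members and lists were chosen with earlier results of these data known. Named were all 10 genes, their promoter regions, group-only regions, the strongest region away from promoters per gene, the 5 regions of smallest limma p in each direction and up to 4 genes per list with the largest differences, besides those whose groups did not overlap and IKZF3, IKZF1 and ERBB3 window regions described beside them. RefSeq promoter sequences (22 entries) matched 9 of the 10 genes, IKZF3 having no entry, and all 22 equalled hg38. Alternatives tried were other promoter widths, flanks, merging, q thresholds, list lengths, normalisations, filters, fragment sets and left-out libraries. Some marker genes are not reported here.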

Additional observations from a re-analysis of the deposited data

How the results depend on the processing

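Of the 56 shared regions, limma called 0 lower and 0 higher in the reported fit, 2 and 2 with normal scores, 3 and 2 with recovered pile-up, and 1 and 2 with the fragment set as a covariate. In the long-fragment libraries it called 3 lower and 0 higher of 60 regions, and 1 of these 3, upstream of IKZF3, was among the 56. It called 0 and 0 with median centring, with a mean −log10 p of at least 20, and with any 1 library left out (0 to 0). Without CB-6644 replicate 2, 681 of all regions were lower and 531 higher, and with any other library left out 0. The regions with one of these calls kept their direction in every fit that gave them a value.

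The regions called in all 6 libraries numbered 20 where a library's peaks had to cover 50% of a region and 30 with flanks of 10 kb. DMSO-only regions numbered 2 and CB-6644-only regions 1 with equal numbers of peaks. CB-6644-only regions numbered 1 with flanks of 100 kb, 2 where 2 of 3 libraries sufficed, 2 in the long-fragment libraries, and 0 to 1 with 1 library left out. Apart from changed flanks, which leave the shares of all regions as they were, no share of all regions is given at these settings. The difference in peak number within the windows turned to 2.67 with equal numbers of peaks. With the canonical start alone 9 genes had a promoter peak in all 6 libraries, IKZF4 having none.

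By percentile of fold enrichment the median difference over the 10 promoters was 4.21, and CRBN and DDB1 turned to 0.0872 and 1.85. The differences moved to 20.5 at IKZF3, 12.5 at ZFP91, 7.69 at IKZF1 and 9.20 at IKZF2. IKZF1 turned to -7.30 in the long-fragment libraries. With 1 library left out the promoter differences ran from -1.35 to 4.23 at CUL4A, -8.87 to 6.84 at IKZF1 and -0.544 to 7.49 at IKZF2. IKZF1 turned negative without CB-6644 replicate 2 (-8.87), DMSO replicate 2 (-0.104) or DMSO replicate 3 (-0.168). In limma, the promoter difference changed sign at some genes, and not only where it was near 0. In the reported fit it was 0.290 at IKZF1 and 0.118 at DDB1. With normal scores CRBN was -0.0283, DDB1 -0.0186 and CUL4B -0.0390, and on pile-up CUL4B was -0.0464 and IKZF4 -0.0172. With median centring IKZF4 was -0.00708 and IKZF5 0.0539. With 1 library left out they ran from -0.0142 to 0.0457 at CRBN, -0.0328 to 0.224 at DDB1, -0.0471 to 0.109 at CUL4B, -0.0373 to 0.516 at IKZF1, -0.0560 to 0.0714 at IKZF4 and -0.0424 to 0.0220 at IKZF5. The causes of these changes were not tested.

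The deviations of same-numbered libraries from their group means had correlations of -0.477, -0.332 and 0.326 over the shared regions. CB-6644 replicate 2 was nearest to DMSO replicate 1 (0.572), the other short-fragment library, and not every library was nearest to its own number. The short-fragment libraries carry different numbers, so that these correlations cannot decide whether same-numbered libraries were paired. The labels name no pairs, and the numbers were not taken as pairs. With the replicate block limma called 0 lower and 0 higher of the 56 regions, and 0 of all 42089. Read totals are unknown, and the part of depth in the calls was not tested.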
